A study of Homo sapiens with 17 samples.

Results

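CENPM encodes centromere protein M, and its transcript was the RNA described here. The transcript was examined through eCLIP peaks on the minus strand of chromosome 22 whose midpoint fell between hg19 positions 42334725 and 42343168. This span of 8444 nt held 45 of the 389788 peaks deposited over 11 libraries. The transcript was chosen by the log2 folds and p-values of the ZNF184 libraries there, set against those of the other proteins. The contrast of ZNF184 with the others is therefore a description with no test, and nothing rests on it. All 28 ZNF184 peaks of the span passed the thresholds for a significant peak and all 17 peaks of the other proteins fell short of them. Over all peaks, 3.15% and 4.82% passed in the ZNF184 libraries and 0.214% to 5.29% in the others, so the second count is near its background. The working label of a ZNF184-rich transcript describes these lists, and its match with them was fixed by the choice.

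Centromere protein M is a subunit of the inner kinetochore, the protein assembly that joins centromeric chromatin to the spindle. It works within the constitutive centromere-associated network, in a module with CENPH, CENPI and CENPK, and its fold resembles that of a small GTPase. ZNF184 is a C2H2 zinc finger protein with a KRAB domain, a class best known for binding DNA. eCLIP maps where a protein touches RNA: ultraviolet light links the protein to the RNA, an antibody recovers the protein, and the attached RNA fragments are sequenced.

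The cells were 293T, a human embryonic kidney line that carries the SV40 large T antigen, irradiated on the plate with 400 mJ per square cm at 254 nm. Antibodies from Bethyl recovered AIFM1 (AIFM in the labels), NUMA1, RANGAP1, RNF219, VIM or ZNF184 as the cells make them, with no other treatment, and every group shared the same line. AIFM1, NUMA1, RANGAP1, VIM and ZNF184 had 2 libraries each and RNF219 had 1, and each protein had 1 size-matched input, a library made from lysate RNA of the same size range without the antibody step. Each of the 6 proteins was seen through 1 antibody and 1 cell line. Both replicates of a protein shared its 1 input, so agreement between them includes what that input brings to both. The labels do not say whether replicates came from separate cultures, and their spread may be technical.

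Each deposited peak carried the authors' log2 fold of eCLIP over input and the authors' -log10 p for it. A peak was taken as significant with both values at least 3, a fold of at least 8. In ZNF184, 12 of 12 CENPM peaks in replicate 1 and 16 of 16 in replicate 2 were significant, where 3.15% and 4.82% of all peaks in these libraries were. Many of these were pieces that abut: joined, an alternative chosen after seeing the data, they made 10 peaks in replicate 1 and 7 in replicate 2, which turned the order of the replicates. Before joining, the 12 and 16 peaks were 0.603% and 0.617% of all significant peaks in the 2 libraries. No CENPM peak was significant in the other 9 libraries. Over all their peaks, RANGAP1 had 1.52% and 2.99% significant in replicates 1 and 2, NUMA1 had 1.51% and 0.877%, and VIM had 5.29% and 4.5%. AIFM1 had 0.216% and 0.214%, and RNF219 had 0.926%. With at most 5 CENPM peaks in any of these libraries, a count of 0 is near those shares and says nothing about the transcript by itself.

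The level of CENPM in each library was taken as the median log2 fold of its peaks in the span. In ZNF184 it was 5.64 in replicate 1 (12 peaks, 4.38 to 7.72) and 6.25 in replicate 2 (16 peaks, 4.27 to 8.40), where the medians over all peaks were 1.22 and 1.29. In VIM it was 2.05 from 1 peak in replicate 1 and 1.05 from 2 peaks in replicate 2. In NUMA1 it was 1.54 from 5 peaks and 1.25 from 3. RANGAP1 replicate 1 stood at 1.31 from 2 peaks, and RANGAP1 replicate 2 had no peak in the span. AIFM1 had 1.15 from 2 peaks and 1.42 from 1, and RNF219 0.22 from 1. Both ZNF184 libraries lay above all others: the lowest ZNF184 peak was at 4.27 and the highest of the other proteins at 2.47. The 95% counting intervals of the 2 sets did overlap, since peaks of few reads had upper bounds of up to 4.75 and the lowest ZNF184 lower bound was 3.49.

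By protein, the order was ZNF184 at 5.94 ± 0.44 (SD, n = 2), VIM at 1.55 ± 0.71 (SD, n = 2), NUMA1 at 1.39 ± 0.20 (SD, n = 2), RANGAP1 at 1.31 from 1 library, AIFM1 at 1.28 ± 0.19 (SD, n = 2) and RNF219 at 0.22 from 1 library. VIM, NUMA1, RANGAP1 and AIFM1 differed from each other by less than the SD of VIM. The single RNF219 peak had a 95% interval of -1.38 to 1.97 in log2 fold, which takes in the level of each of those 4 proteins. Relative to its own library's median over all peaks, CENPM stood 4.41 and 4.96 higher in ZNF184. In the other 8 libraries with a peak this difference ran from -1.15 in VIM replicate 2 to 0.74 in AIFM1 replicate 2, and 5 of the 8 lay within 0.3 of 0.

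**Figure D1:**
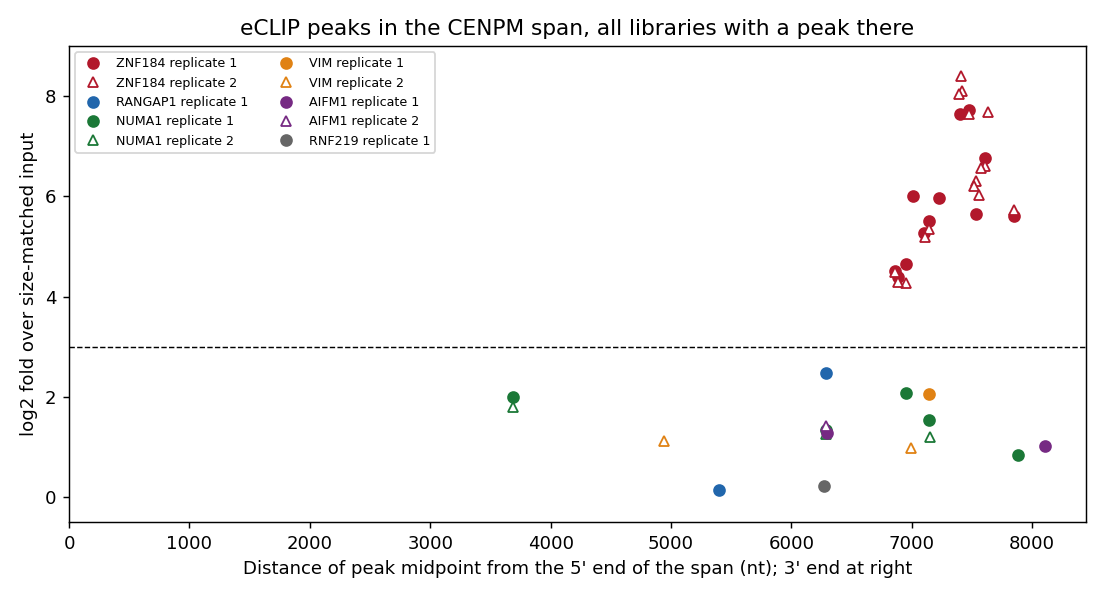
Log2 fold over size-matched input (vertical axis) of each of the 45 CENPM peaks against the distance of its midpoint from the 5' end of the span in nt (horizontal axis), with filled circles for replicate 1, open triangles for replicate 2, colours for proteins and a dashed line at the threshold of 3. The 28 ZNF184 peaks, from 4.27 to 8.40, all lie near the 3' end, and the 17 peaks of other proteins lie below the line.

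ZNF184 peaks were limited to one stretch of 1010 nt, from 42335309 to 42336318, or 11.96% of the span. CENPM is read from high to low coordinates, so this stretch lay toward the 3' end: its upstream edge was 6850 nt from the 5' end of the span and its downstream edge 584 nt from the 3' end. Of 9 bins of 1 kb along the span, 2 held significant peaks of both ZNF184 libraries and the remaining bins held no ZNF184 peak. Peaks of other proteins were found in 6 bins. The peaks of replicate 1 covered 369 nt and those of replicate 2 covered 360 nt. Which exon, intron or untranslated part the stretch belongs to was not analysed here, since the gene tables at hand are on another build. RefSeq lists CENPM on GRCh38 with 7 curated transcripts (gene ID 79019) and a length of 19957 nt, longer than the span, so the span does not cover the longest gene model.

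Along the stretch the ZNF184 peaks formed 3 groups separated by gaps of more than 100 nt. This division was made with the peaks in view and serves to order the values. In the direction of the transcript the first group was 389 nt long (42335930 to 42336318), the second 258 nt (42335527 to 42335784) and the third 21 nt (42335309 to 42335329). Log2 folds were highest in the middle group in both replicates. The median log2 fold was 5.26 in replicate 1 and 4.50 in replicate 2 for the first group, 7.21 and 7.13 for the second, and 5.62 and 5.72, from 1 peak each, for the third.

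The middle group held the peaks with the highest ranks. In replicate 2, 3 abutting pieces between 42335741 and 42335784 had log2 folds of 8.10, 8.40 and 8.05. The piece at 8.40 (42335757 to 42335769, 13 nt) had rank 2 by fold among all 53807 peaks of that library, and its neighbours ranked 7 and 8. In replicate 1 a single peak over the same place (42335746 to 42335782) had a log2 fold of 7.64 and ranked 11 of 63198. Further downstream, the peak at 42335675 to 42335703 had a log2 fold of 7.72 in replicate 1 and ranked 10. Its counterpart in replicate 2 (42335676 to 42335702) had 7.65, with the same rank of 10. Another such place was a peak at 42335529 to 42335591 with 6.77 in replicate 1, which replicate 2 split into 3 pieces at 7.68, 6.61 and 6.57.

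Folds in the first group were lowest on its 5' side. The peaks between 42336000 and 42336071 had log2 folds of 5.52 and 5.26 in replicate 1 and 5.35 and 5.19 in replicate 2. Those between 42336265 and 42336318, nearest the 5' side, had 4.38 and 4.50 in replicate 1 and 4.30 and 4.50 in replicate 2. Between them, the peak at 42336207 to 42336229 had 4.65 in replicate 1 and its counterpart in replicate 2 had 4.27, the lowest ZNF184 value in the span, at rank 790. Its 95% interval of 3.49 to 5.17 lay above 3, as did that of each of the 28 ZNF184 peaks. The intervals come from the same folds and p-values by which the transcript was chosen. Their place above 3 was therefore largely fixed by the choice. Replicate 1 had a further peak within this group, at 42336140 to 42336171, with a higher fold of 6.005.

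**Figure D2:**
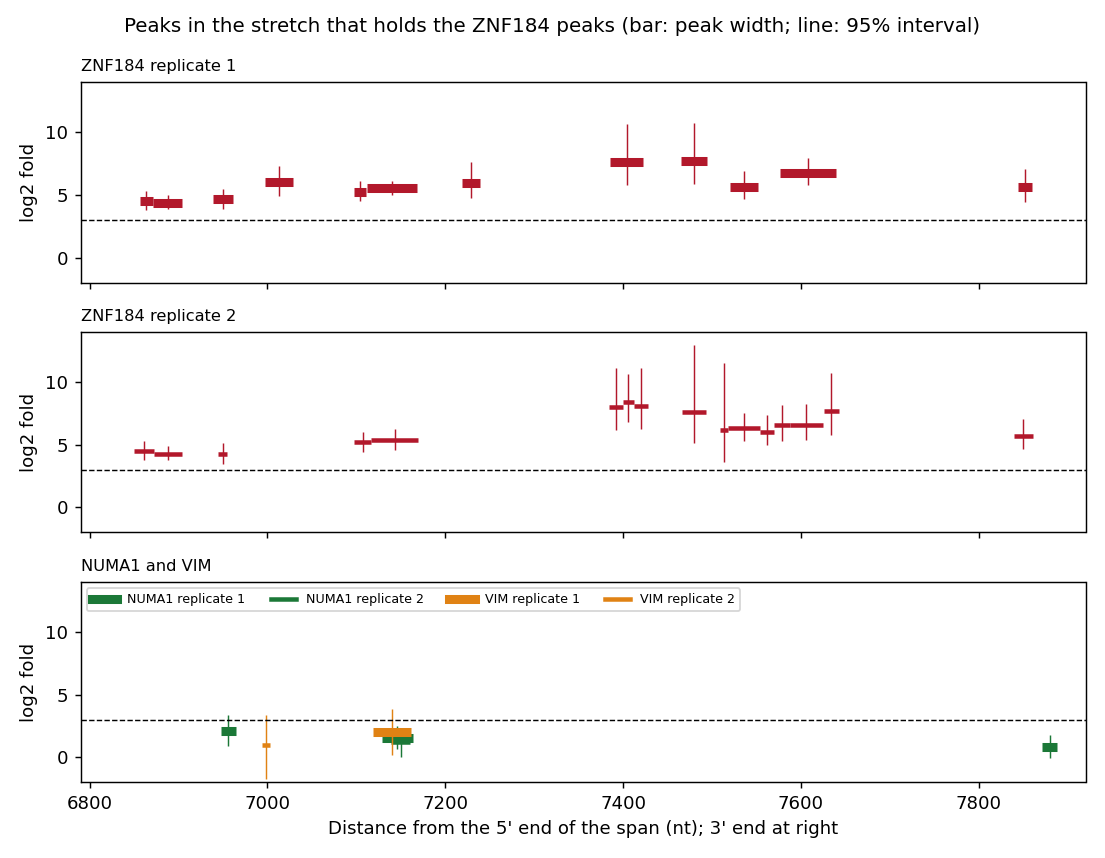
Log2 fold over input (vertical axes) against distance from the 5' end of the span in nt (horizontal axis) for ZNF184 replicate 1 (top), ZNF184 replicate 2 (middle) and NUMA1 and VIM (bottom), where each bar spans the width of a peak, each vertical line is its 95% Clopper-Pearson interval for counting error and the dashed line marks 3. Both ZNF184 replicates lie at 4.27 to 4.65 at the left end and at 7.64 to 8.40 between 7392 and 7480 nt, and the NUMA1 and VIM peaks stay at or below 2.07.

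Overlapping peaks of the 2 ZNF184 replicates had near values. Merged where they shared at least 1 nt, the peaks made 12 regions, of which 8 held a significant peak of each replicate. Some peaks entered more than 1 of the 16 overlapping pairs, and 1 pair shared only 1 nt, so the pairs are not separate comparisons. Of 10 reciprocal best pairs, each the largest overlap of both its peaks, 7 differed by less than 0.3 in log2 fold. Of all 16 pairs, 9 differed by less than 0.3, and the differences (replicate 2 minus replicate 1) ran from -0.38 to 0.91. The larger ones lay in the middle group, where replicate 2 was above replicate 1 by 0.91 at the piece beginning at 42335527, by 0.76 at the piece of 8.40, and by 0.65 at 42335614 to 42335650. Each of these replicate 2 values lay within the 95% interval of its replicate 1 partner, which says little about the differences. The intervals take in the error of few input reads, and both replicates share that input. These intervals were 5.78 to 7.99, 5.77 to 10.7 and 4.66 to 6.88, and the first 2 come from the least possible reads, which gives the widest interval.

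There were 4 ZNF184 peaks without a counterpart. Replicate 1 alone had peaks at 42335930 to 42335949 (log2 fold 5.97) and 42336140 to 42336171 (6.005). Replicate 2 alone had a pair of short pieces in the middle group, at 42335599 to 42335613 (6.02) and 42335651 to 42335659 (6.20), both abutting other pieces of that library. Only overlapping positions were compared, so a place without a deposited peak has no fold of its own in that replicate.

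**Figure D3:**
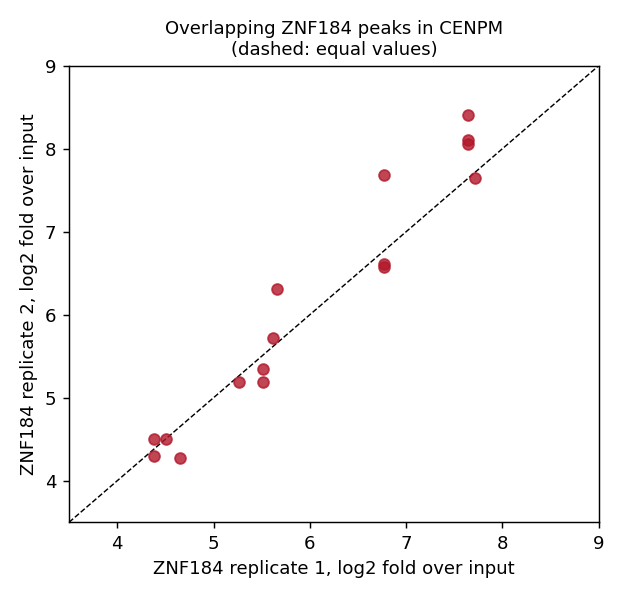
Log2 fold over input of ZNF184 replicate 2 (vertical axis) against replicate 1 (horizontal axis) for the 16 pairs of overlapping CENPM peaks, with a dashed line at equal values. The points lie within 0.38 below and 0.91 above the line, and both replicates used the same input library. Some peaks enter more than 1 pair.

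The reads behind the peaks were worked out from the deposited folds and p-values. In CENPM each ZNF184 peak rested on at least 48 eCLIP reads and the peaks of other proteins on at most 29. Total depth of the libraries is unknown and peaks differ in width, so these reads do not compare binding between proteins. For 20 of the 28 ZNF184 peaks the p-value stood at a ceiling of the lists. For 19 of these only the smallest whole numbers that give the fold and pass the ceiling are known, and such reads are given as "at least". Where an exact test had been used, the ceiling was a -log10 p of 15.66. Where a chi-square test had been used, values above the ceiling were listed as 400. That ceiling was taken as the highest value below 400 in each list, which was at most 88.02. The least reads at a listed 400 had to pass that value and need not reach 400. A listed 15.66 at the strongest peaks therefore does not mean weaker evidence than 400. The reads settled for all 17 peaks of other proteins and for 9 of ZNF184.

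In the first ZNF184 group the settled or least eCLIP reads of a peak were 230 to 908 in replicate 1 and 177 to 374 in replicate 2, beside 5 to 29 and 13 to 29 input reads. In the third group the peak had 216 eCLIP beside 6 input reads in replicate 1 and 241 beside 7 in replicate 2. In the middle group most numbers are the least possible, so its reads were not compared with those of the other groups. Its settled or least eCLIP reads were 293 to 642 in replicate 1 and 48 to 664 in replicate 2. Beside them its settled or least input reads were 1 to 8, and where they are the least the true numbers can be larger. Where 1 is given, the input may also have had no read. At its 8 peaks listed at the exact ceiling a number under 5 was involved, which was the input. Its strongest piece had 664 eCLIP reads beside 3 input reads, with a 95% interval of 6.85 to 10.7 in log2 fold. The peak of replicate 1 at 42335675 had at least 309 eCLIP reads beside at least 2, and the interval from these numbers ran from 5.85 to 10.8. Each ZNF184 peak with a log2 fold of 7.64 or more was among those 8, and so was the short piece at 6.20. The part of input reads in the order of the 3 groups was not tested.

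At 3 places overlapping ZNF184 peaks had settled reads in both replicates. Toward the 5' side these were 300 eCLIP beside 18 input reads in replicate 1 (42336298 to 42336312) and 266 beside 18 in replicate 2 (42336297 to 42336318). At 42336207 to 42336229 replicate 1 had 277 beside 15, and the narrower peak of replicate 2 had 177 beside 14. In the third group, as given above, the input reads were 6 and 7. Input reads differed by at most 1 between replicates at these places, where the peaks differed in width. Both replicates were set against the same input library, so this closeness was largely fixed by the design. The eCLIP library of ZNF184 replicate 2 was 0.891 times as deep as that of replicate 1.

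**Figure D4:**
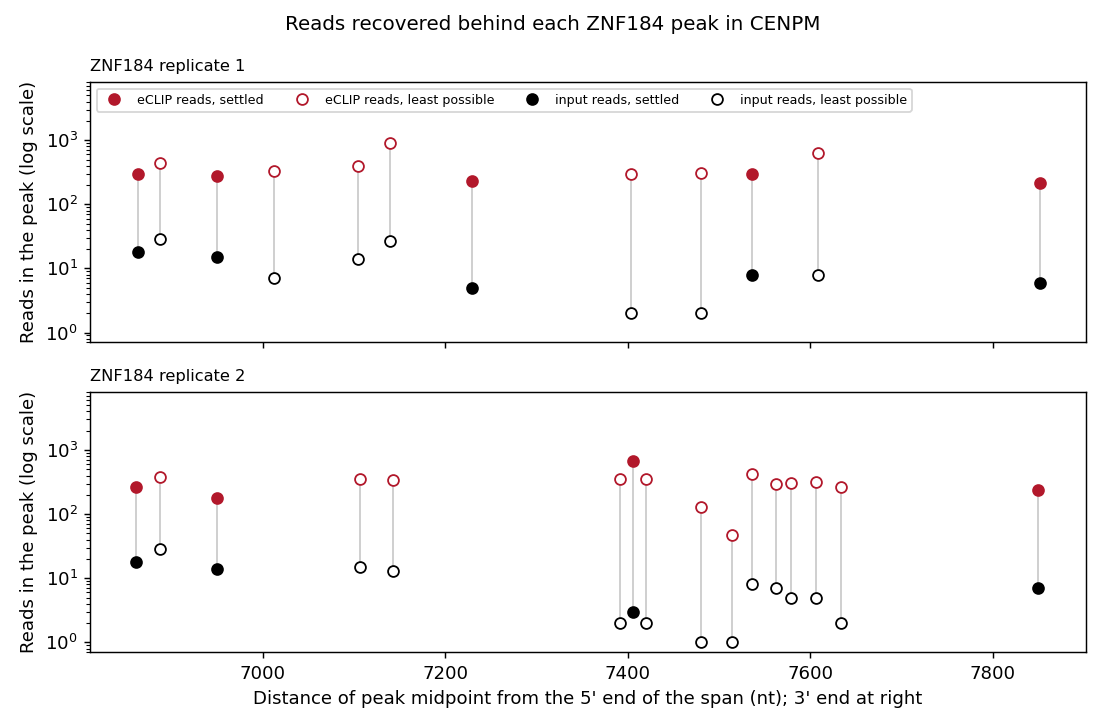
Reads per ZNF184 peak in CENPM (vertical axes, log scale) against distance from the 5' end of the span in nt (horizontal axis) for replicate 1 (top) and replicate 2 (bottom), in red for eCLIP and black for input, filled where the number settled and open where it is the least possible. eCLIP numbers run from 48 to 908 along the stretch, and the settled or least input numbers are 1 to 3 at the highest folds, between 7392 and 7480 nt.

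Other proteins had peaks at 3 places that ZNF184 also had. The one with most libraries was 42336000 to 42336071. There NUMA1 had log2 folds of 1.54 in replicate 1, from 29 eCLIP beside 18 input reads, and 1.20 in replicate 2, from 13 beside 18. VIM replicate 1 had 2.05 there, from 6 beside 7. The ZNF184 peaks at the same place stood at 5.52 and 5.35, which was 3.29 to 4.32 higher in log2 fold than these. Each protein was measured against its own input, so these are values side by side.

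At the second place NUMA1 replicate 1 had 2.07 (42336205 to 42336221, 21 eCLIP beside 9 input reads), where ZNF184 had 4.65 and 4.27. At the third, VIM replicate 2 had 0.97 from 3 beside 5 reads (42336166 to 42336174), and ZNF184 replicate 1 had 6.005. No other library had a peak that overlapped the middle ZNF184 group. A library without a peak at a place has no deposited fold there, which was not read as a lack of signal.

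A place without ZNF184 was common to more proteins. At 42336860 to 42336903, upstream of the ZNF184 stretch, 6 libraries of 4 proteins had a peak. RANGAP1 replicate 1 had the highest log2 fold there, 2.47 (95% interval 0.82 to 4.52), from 15 eCLIP beside 4 input reads. NUMA1 had 1.33 (0.45 to 2.24) and 1.25 (0.18 to 2.29), from 28 and 15 eCLIP reads beside 20 in the input. AIFM1 had 1.28 and 1.42 from 4 and 10 reads beside 2, and RNF219 0.22 from 10 beside 6. The intervals of AIFM1 and RNF219 included 0, and none of the 6 peaks was significant. Neither ZNF184 nor VIM had a peak there.

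NUMA1 also had a place of its own in both replicates, 42339470 to 42339489 and so far upstream that its midpoint was 3691 nt from the 5' end in replicate 1. Its log2 folds were 2.00 (95% interval 0.80 to 3.32; 20 eCLIP beside 9 input reads) and 1.80 (0.43 to 3.20; 11 beside 10). The other proteins' remaining peaks came from 1 library each. They were 42335053 to 42335071 in AIFM1 replicate 1 (1.02), 42335281 to 42335297 in NUMA1 replicate 1 (0.85), 42337763 to 42337780 in RANGAP1 replicate 1 (0.15) and 42338209 to 42338235 in VIM replicate 2 (1.13). Over all 17 peaks of other proteins the folds were above input, 9 had an interval above 0, and 4 had a -log10 p of at least 3 without a fold of 8. Folds above input are usual in these lists: each library's median log2 fold over all its peaks was at least 0.68 and at most 2.27. With that library median subtracted, the CENPM levels of the other proteins had a median of -0.057. The share of all peaks meeting each count was not worked out, so the counts do not set CENPM above the rest of these lists.

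On the opposite strand the span held no peak in any of the 11 libraries. On the CENPM strand the nearest peak outside the span was at least 11992 nt away on the 3' side and 112046 nt away on the 5' side. The ZNF184 peaks nearest on the 3' side were significant too, with log2 folds of 3.25 at 12129 nt and 4.28 at 12136 nt. Inside the span, the peak nearest the 3' end was the AIFM1 peak of 1.02, 336 nt from it, and the peak nearest the 5' end was that of NUMA1 replicate 2 at 1.80, 3688 nt from it.

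Set against the rest of the ZNF184 lists, CENPM stood near the top. The genome was divided into windows of 10 kb on each strand, and 4713 windows outside CENPM had at least 3 peaks in each ZNF184 library. Their medians of log2 fold had a median of 1.14 in replicate 1 and 1.20 in replicate 2, against 5.64 and 6.25 in CENPM. In each replicate 5 windows were at or above CENPM, and 2 were in both. In 6 windows every ZNF184 peak was significant in both libraries, as in CENPM, but none of these had more than 4 peaks in a library. A single window had at least as many significant peaks as CENPM in both libraries, and it held significant peaks of other proteins as well. That count takes each deposited piece as a peak and was not repeated with pieces joined. These ranks describe the lists, since CENPM was chosen for the same values.

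**Figure D5:**
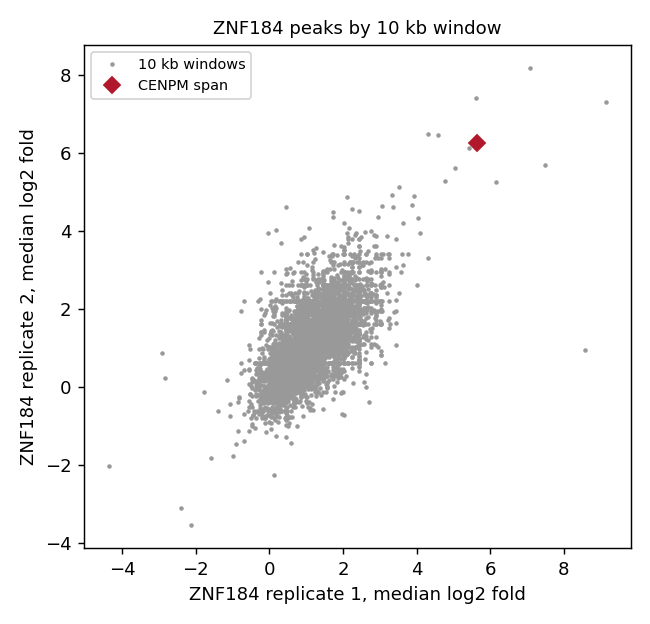
Median log2 fold of ZNF184 replicate 2 (vertical axis) against replicate 1 (horizontal axis) for 4713 windows of 10 kb with at least 3 peaks in each library (grey points) and for the CENPM span (red diamond). CENPM lies at 5.64 and 6.25, apart from the mass of windows around 1.14 and 1.20.

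Likeness to CENPM was measured as Pearson's r over the 10 libraries with a CENPM peak, between the window's median log2 fold and that of CENPM after each library's own median was subtracted. In 1060 windows every one of these libraries had a peak. Of the 5 most alike, 3 were on the minus strand: chr21:44470001-44480000 with r = 0.972, chr15:75650001-75660000 with 0.939 and chr22:50940001-50950000 with 0.931. The others were on the plus strand, chr12:57620001-57630000 with 0.929 and chr3:49050001-49060000 with 0.918. The first had ZNF184 medians of 3.93 and 4.90 and at most 1.93 in another library, with 5 of 9 and 3 of 4 ZNF184 peaks significant. In the rest of the 5 the ZNF184 medians were 2.04 to 3.03, against 5.64 and 6.25 in CENPM. Their highest median in another library was 1.52 to 2.41. A high r thus does not mean a like level. In the chromosome 12 window, 0 of 8 peaks were significant in replicate 1 and 8 of 20 in replicate 2. The median r over all 1060 windows was 0.315. The 2 high ZNF184 values of CENPM weigh most in r, the replicates share an input, and genes in the windows were not named because no annotation of this build was used.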

How the data were processed

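The members and lists were chosen with earlier results of these data known. Sample titles gave groups and replicate numbers. Cutadapt, STAR, Picard, SAMtools, GATK and the build hg19 appear in the submitters' processing notes. For the peak caller, a name was not given in the sources used here. Deposited lists, 1 per eCLIP library, held for each peak the authors' -log10 p and the authors' log2 fold over the size-matched input.

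Peaks were assigned by midpoint. A library's folds are whole-number ratios times 1 constant, input depth over eCLIP depth (0.534 to 4.84; 1.36 and 1.53 in ZNF184). The constant was the one whose ratios and p-values matched most of 300 peaks per library (97.7% to 99.7%, p to within 0.005 on the log10 scale). Reads followed from fold and p: exact where an observed or expected number was under 5, otherwise chi-square with continuity correction. Whether the input had 0 reads or 1 could not be settled. Reads can hold PCR copies, and Clopper-Pearson intervals (95%) cover counting error only. Total depth is unknown. The recovery was run on data simulated with the same formulas, which cannot show whether those formulas are the right ones.

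Windows, and the rule for those most alike, replaced genes because no hg19 annotation was used. The list of other centromere genes was not analysed here for the same reason. Peaks printed singly were, by rule, those of reproducible ZNF184 regions, the strongest of each other protein and the ZNF184 peaks nearest the threshold, and beyond the rule others chosen after their values were seen. No significance test between groups was run. Python 3.11.15, pandas 2.3.3 and scipy 1.17.1 were used.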

Additional observations from a re-analysis of the deposited data

How the results depend on the processing

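The 12 and 16 significant ZNF184 peaks and 8 reproducible regions stayed the same with a log2 fold of at least 2 or 4. They also stayed with a -log10 p of at least 5 and by any overlap with the span. At a log2 fold of at least 2, however, peaks of other proteins passed too. These were RANGAP1 replicate 1 at 2.47 and NUMA1 replicate 1 at 2.07 and 2.00. The region count did depend on merging: a stricter overlap rule gave 10 reproducible regions, and joining abutting pieces gave 7. With abutting pieces joined, chosen after seeing the data, replicate 2 had 7 significant peaks and replicate 1 had 10, so the higher count of replicate 2 came from pieces. Leaving out a replicate leaves the peak count of the other, 12 to 16, by construction and tests nothing about the regions. Bins of 2 kb left 1 bin in place of 2. Among peaks with at least 10 settled or least input reads (5 in each replicate) the ZNF184 medians were 4.65 and 4.50. Least numbers can be too low for this filter, and a filter on the input tends to take out high folds. The lower medians therefore do not show how the folds depend on input reads. Over all CENPM peaks, after subtraction of the library median, the ZNF184 medians were 4.41 and 4.96. For the other proteins the median over 8 libraries went from 1.28 to -0.057 under that subtraction, with single libraries from -1.15 to 0.74. No paired analysis was possible because the contrast of ZNF184 with the others chose the transcript and is given without a test, and no label says that a replicate number is shared across proteins. Input reads under 5 limit the folds of the peaks in the middle ZNF184 group that were listed at the exact ceiling. At its other peaks, least input reads can be below the true numbers.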

Other observations

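Beyond the 5' end of the span, 10476 to 11434 nt away, the plus strand carried low peaks in 5 libraries. RANGAP1 had log2 folds of 1.30 and 2.42 there, ZNF184 replicate 2 had 1.20, NUMA1 replicate 2 had 1.67, and AIFM1 replicate 2 had 1.10 and 0.68. They rested on 3 to 6 eCLIP reads, and none was significant.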
